A study of Homo sapiens with 3 samples.

Results

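The metallothionein gene cluster lies on chromosome 16, and its CpGs were taken as all CpG sites of a fixed interval of 130 windows of 1 kb (GRCh37) that had at least 10 reads in each of 3 libraries, with the reads of the opposite strands summed. They run from chr16 position 56598610 to position 56722836. This gave 620 of the 2238764 CpGs compared across the series, out of 893 CpGs in the interval with a read in any library. The interval was chosen for 10 genes, which RefSeq orders as MT4, MT3, MT2A, MT1E, MT1M, MT1A, MT1F, MT1G, MT1H and MT1X. MT1B and 5 pseudogenes of the family lie among them in the same order table.

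The libraries were made from Hep3B, a human hepatocellular carcinoma line. One was from the parental cells, and 1 was from each of 2 SOX4 knockout derivatives of that line, called line 1 and line 2 after the numbers #1 and #2 in their labels. SOX4 belongs to the SOX transcription factors, and its knockout had been made earlier by CRISPR/Cas9. No other treatment was given in the labels. The study's methods state that the knockout cells were grown with puromycin, and name no such drug for the parental cells. Any effect of that drug cannot be told apart from the knockout either. Genomic DNA was enriched with the EPIC capture probes, converted with bisulfite and sequenced, so that a CpG's methylation level is the share of its reads that still show C. Each line has 1 library, so the knockout and any other difference between the lines cannot be told apart, and the edit at SOX4 and the identity of the cells were not checked from these reads.

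Metallothioneins are small, cysteine-rich proteins that bind zinc, copper and cadmium, and hepatocytes produce them in quantity when metals or glucocorticoids rise. MT2A and the MT1 genes are the broadly expressed members, MT3 is best known from brain and MT4 from stratified epithelium. Their promoters carry metal response elements, short motifs bound by the zinc sensor MTF1, and methylation of MT1 promoters is known in liver tumours.

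The promoter sequences that the methylation values below belong to are shown for MT2A, MT1H and MT1X, the members whose RefSeq promoter (GRCh38.p14, forward strand) could be set on the positions of the files by the spacing of its CpGs. All 37 CpGs of the MT2A sequence fell on covered CpGs at one place, against 6 at the next best place on the chromosome. For MT1H 19 of 25 CpGs fell on covered CpGs, against 6, and for MT1X 22 of 26, against 5. Each sequence holds the 250 bases before the gene start, with matches to the metal response element core in capitals. The core was searched as TGCACNC and TGCGCNC on both strands.
MT2A, chr16:56642246-56642495: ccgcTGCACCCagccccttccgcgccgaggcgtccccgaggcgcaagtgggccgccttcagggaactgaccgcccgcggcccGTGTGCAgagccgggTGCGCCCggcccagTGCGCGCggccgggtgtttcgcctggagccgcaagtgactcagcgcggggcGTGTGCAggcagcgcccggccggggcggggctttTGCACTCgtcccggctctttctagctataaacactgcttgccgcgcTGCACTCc
MT1H, chr16:56703476-56703725: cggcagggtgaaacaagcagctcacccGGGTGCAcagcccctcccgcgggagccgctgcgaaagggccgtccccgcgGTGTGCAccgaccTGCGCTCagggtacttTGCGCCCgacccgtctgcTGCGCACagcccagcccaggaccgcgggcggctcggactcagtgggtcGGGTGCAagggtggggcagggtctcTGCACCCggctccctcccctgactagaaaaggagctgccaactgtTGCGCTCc
MT1X, chr16:56716132-56716381: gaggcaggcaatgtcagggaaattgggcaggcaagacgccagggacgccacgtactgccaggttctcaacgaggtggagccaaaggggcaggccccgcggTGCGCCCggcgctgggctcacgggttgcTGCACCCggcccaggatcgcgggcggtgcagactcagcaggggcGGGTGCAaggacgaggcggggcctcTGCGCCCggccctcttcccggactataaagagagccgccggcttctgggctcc

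The MT2A sequence held 7 matches, 5 of TGCACNC and 2 of TGCGCNC. MT1H held 8, with 4 of each core, and MT1X held 4, with 2 of each. No matches overlapped. Of all 35116 promoters in the table, 24.8% held at least 1 match of either core (9.87% for TGCACNC and 16.8% for TGCGCNC), 0.37% held at least 4 and 0.0313% at least 7. A match is a string of letters and not a measured binding site. MT4 was in the table, with 3 matches, but its spacing matched 4 of 8 CpGs against 3 elsewhere, so it was not placed. MT3, MT1E, MT1M, MT1A, MT1F and MT1G were not placed and are described by the stretches of the cluster that they lie in.

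Read depth over the cluster followed the size of the libraries. Median reads per CpG were 27 in parental cells, 25 in line 1 and 34 in line 2, within a range of 10 to 150. The libraries held 96987706 to 133170621 CpG reads. Relative to the parental library, the share of reads that fell in the cluster was 1.01 in line 1 and 1.01 in line 2, and 1.03 and 1.01 when set against the reads of chromosome 16 alone.

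Methylation of the cluster was lower in both knockout lines than in the parental cells, and lower in line 1 than in line 2. The forward strand alone, which covers few of the CpGs, gave 23.7%, 17.7% and 23.9% in the parental library, line 1 and line 2, with line 2 not lower. Over the 620 CpGs the mean level was 37.2% in parental cells, against 29.1% in line 1 and 33.8% in line 2. Averaged, the knockout lines stood at 31.5% ± 3.33 (SD, n = 2 lines), a difference from parental of -5.71 points, while line 1 minus line 2 was -4.70 points. With 1 parental library against 2, the smallest 2-sided p that an exact permutation test can give is 0.333, so no test over libraries could pass. Across all CpGs of the series the level was 42.7%, 38.7% and 40.6%. The difference from parental was thus -8.06 points in line 1 and -3.36 in line 2 over the cluster, beside -4.07 and -2.13 over all CpGs.

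Intermediate levels were common in the cluster. In the parental library 44.8% of its CpGs were under 20% methylated, 34.2% were between 20% and 80%, and 21.0% were over 80%. Over all CpGs of that library 19.5% were intermediate and 33.6% were over 80%. In line 1 the cluster's share under 20% was 55.6% and its share over 80% was 15.0%. Line 2 stood between, with 50.2% and 17.4%. The median CpG of the cluster was at 25%, 9.90% and 19.4% in the parental library, line 1 and line 2.

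**Figure D1:**
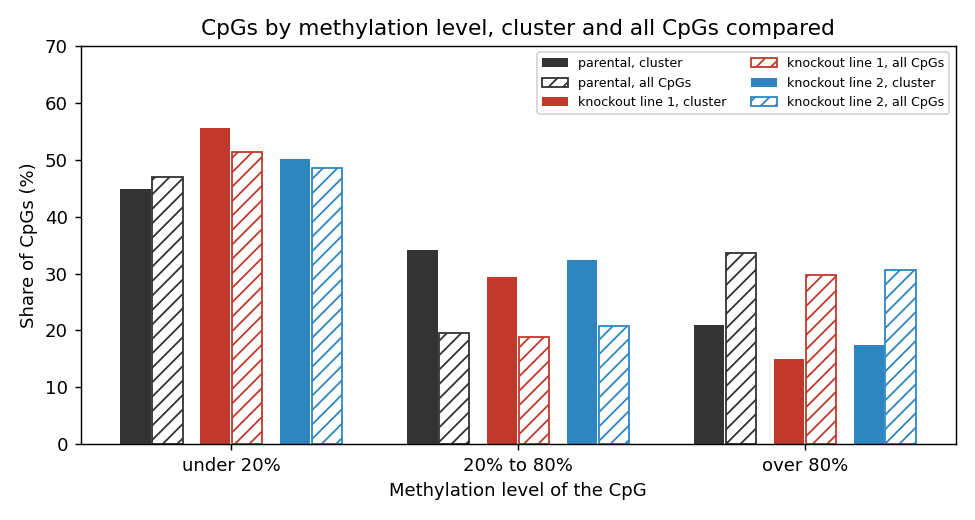
Share of CpGs (%) under 20%, between 20% and 80% and over 80% methylated in each library, with solid bars for the 620 CpGs of the cluster and hatched bars for all 2238764 CpGs. In the middle class the cluster bars (34.2%, 29.4% and 32.4%) stand above those for all CpGs (19.5%, 18.9% and 20.8%).

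Of the 130 windows of 1 kb in the interval, 28 held at least 5 CpGs at the read minimum, and these hold 554 of the 620 CpGs. Windows with at least 20 CpGs seen were taken as CpG-dense. In the parental library 55.1% of all dense windows were under 20% methylated and 20.1% were over 80%. On chromosome 16 these shares were 47.4% and 26.7%. Of the 13 dense windows in the cluster, 8 (61.5%) lay between 20% and 80% in the parental library, with a median of 33.9% and a range of 3.01% to 77.9%. Among all 35712 dense windows 24.8% lay in that band, and their median was 12.1%. Among the 1792 dense windows of chromosome 16, 25.9% lay there, and their median was 25.05%. The cluster's dense median was 26.4% in line 1 and 33.7% in line 2. Its 15 sparser windows had a median of 38.3% in parental cells, 31.8% in line 1 and 37.1% in line 2, where all 77466 sparser windows had 67.8%, 56.5% and 61.8%.

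**Figure D2:**
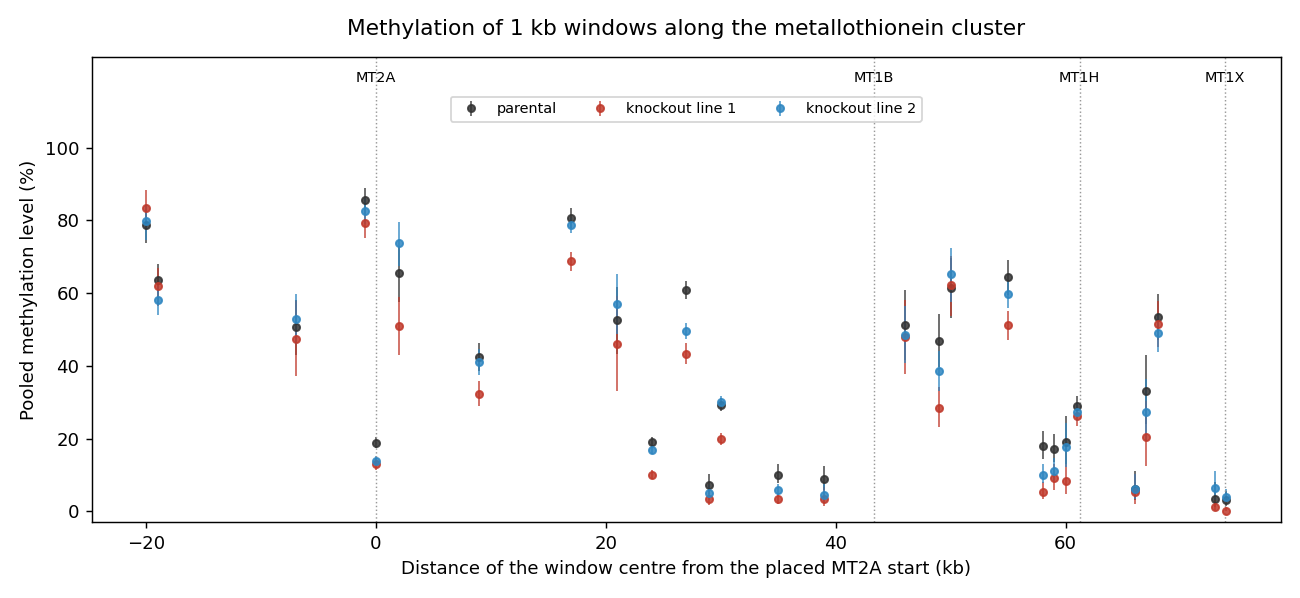
Pooled methylation level (%) of the 28 windows against distance (kb) from the placed MT2A start, with bars for the exact 95% interval of the pooled reads and dotted lines at the placed starts of MT2A, MT1B, MT1H and MT1X. Parental levels run from near 0 beside MT1X to above 80% on both sides of MT2A, and line 1 is the lowest library in most windows.

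The 3 windows with the highest parental mean level began at 56641001, 56659001 and 56622001. The window at 56641001, just upstream of the MT2A promoter, had 17 CpGs at 79.3%, 73.7% and 73.7% in the parental library, line 1 and line 2. The window at 56659001, between the MT2A and MT1B promoters, is CpG-dense with 65 CpGs seen, and its 42 CpGs averaged 77.9%, 71.9% and 79.7%. The window at 56622001, ahead of MT2A, was higher in both knockout lines, at 77.6%, 82.9% and 79.4% over 7 CpGs. The 3 lowest began at 56716001, 56715001 and 56708001, all toward the MT1X end. The window with the MT1X start, at 56716001, was at 3.01%, 0.20% and 3.22% over 20 CpGs. Its neighbour at 56715001 was at 3.71%, 1.31% and 6.16% over 6 CpGs, and the window at 56708001 was at 7.27%, 6.88% and 5.62% over 7. The window with the MT1X start was the lowest of the 28 in every library, and the dense window at 56659001 was methylated in every library.

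No window of the cluster differed by 25 points in any pair of libraries. Across the series, 4.14% of 113178 windows were lower and 0.416% higher by that much in line 1 against parental, 0.629% and 0.0892% in line 2 against parental, and 0.786% and 0.116% in line 1 against line 2. No test was made of the smaller differences, which were mostly negative in line 1. It was below parental in 25 of the 28 windows (89.3%, where 68.5% of all windows were below), with a median difference of -5.78 points and a range of -16.6 to 5.28. Line 2 was below parental in 17 of 28 (60.7%, beside 64.7% of all), with a median of -1.70 points, and line 1 was below line 2 in 22 of 28 (78.6%, beside 63.5%). The shares given here were not matched for the parental level. In the parental library 61.5% of the dense and 66.7% of the sparser windows of the cluster were intermediate, beside 24.8% and 39.5% of all. Line 1 was at least 10 points below parental in 8 windows (28.6%, beside 21.5% of all) and line 2 in 1 (3.57%, beside 10.4%). The window at 56669001 was the one that passed 10 points in both: its 54 CpGs averaged 60.7% in parental cells, 44.4% in line 1 and 50.2% in line 2. With windows shifted by 500 bp, its second part, from 56669501, did pass 25 points in line 1, at 76.3%, 43.1% and 66.3% over 15 CpGs.

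**Figure D3:**
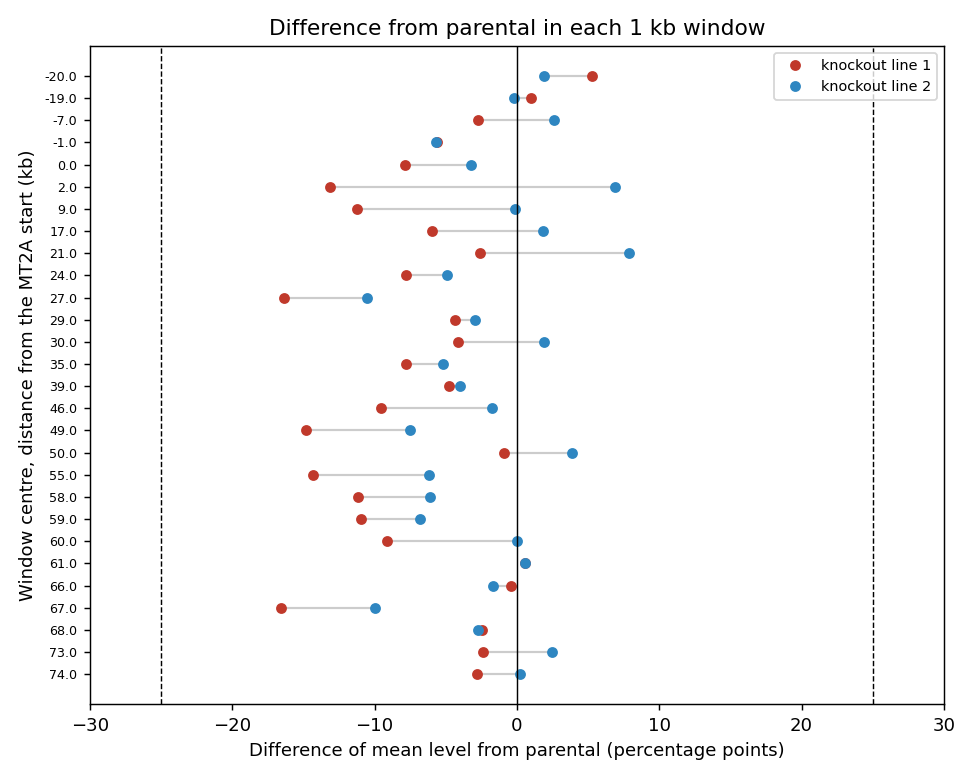
Difference of the mean level from parental (percentage points) in each of the 28 windows, ordered along the cluster by distance (kb) from the MT2A start, for line 1 and line 2, with dashed lines at 25 points to each side. No point reaches a dashed line, 25 line 1 points lie below 0 and line 2 points spread to both sides, from -10.5 to 7.85.

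At single CpGs, the read counts of each pair of libraries were set against each other by a 2-sided Fisher exact test, adjusted over all 2238764 CpGs by Benjamini-Hochberg. Calls needed both an adjusted p under 0.05 and 25 points or more between the levels. These p-values compare libraries, not conditions. In line 1 against parental, 54 CpGs of the cluster were called lower (8.71%, beside 4.46% of all CpGs) and 6 higher (0.968%, beside 0.599%). In line 2 against parental 5 were lower (0.806%, beside 0.713%) and 2 higher (0.323%, beside 0.0831%), and thinning the reads to equal depth gave 1 lower and 0 higher. Against line 2, line 1 had 13 lower (2.1%, beside 1.07%) and 1 higher (0.161%, beside 0.184%). The excess over the background was not tested, and the share of intermediate CpGs, from which a level can move either way, also differed. All 5 lower and 2 higher calls of line 2 were also made in line 1, where across the series 84.2% of the lower and 69.9% of the higher calls of line 2 were. Of the line 1 calls in the cluster, 9.26% of the lower and 33.3% of the higher were shared, beside 13.4% and 9.69% across the series. Calls in both lines made up 0.6% (lower) and 0.0581% (higher) of all CpGs. The comparisons share the parental library.

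The 54 CpGs called lower in line 1 were spread over 19 windows. Their median level was 75.2% in parental cells, 18.5% in line 1 and 53.0% in line 2, and line 2 lay between the other libraries at 51 of them. The 6 called higher had medians of 7.74%, 63.8% and 39.3%, with line 2 between at all 6. Line 2 was not used to choose these CpGs, but CpGs chosen for a gap between 2 libraries tend to leave any other library in the gap.

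The stretch ahead of the MT2A promoter, where MT4 and MT3 lie, had 86 CpGs, and its mean was the highest of any stretch, at 61.2% in parental cells, 52.5% in line 1 and 55.8% in line 2. Line 1 had 10 of these 86 CpGs called lower and 1 higher, where 4.46% and 0.599% of all CpGs were. Line 2 had no call, where 0.713% of all CpGs were called lower and 0.0831% higher. The CpG called higher was at 56623470, in a window of 24 CpGs whose mean hardly moved (56.8%, 57.7% and 56.5%). There 1 of 14 parental reads was methylated, 9 of 13 in line 1 and 11 of 26 in line 2 (line 1 against parental, Fisher exact test, adjusted p = 0.0261). Of the 10 called lower, 8 lay just upstream of MT2A.

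MT2A, the most abundantly expressed human metallothionein in most tissues, had an unmethylated promoter with methylated DNA upstream of it. From 250 bases before the start to 50 after it, 11 of 1120 reads over 37 CpGs were methylated in parental cells, 5 of 657 in line 1 and 12 of 1193 in line 2. These are 0.982% (exact 95% interval 0.491 to 1.75), 0.761% (0.248 to 1.77) and 1.01% (0.521 to 1.75), and the intervals overlap. No CpG of this promoter was called in any pair. The 3 CpGs that lie inside a metal response element core of the sequence above averaged 1.39%, 0% and 0%. Of the metallothionein promoters placed here it had the most CpGs at the read minimum, though not the most reads per CpG. No difference was detectable at this depth.

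Further upstream the level rose over a short distance, and the libraries separated there. At positions -500 to -401 from the start the mean was 97.5% in parental cells, 96.5% in line 1 and 93.9% in line 2. At -400 to -301 the means were 61.1%, 25.2% and 43.3%, and at -300 to -201 they were 28.9%, 10.2% and 23.2%. From -200 to the start every library had a mean under 1%. At this edge between methylated and unmethylated DNA line 1 was the lowest library, and line 2 lay between the others at all 13 CpGs from -450 to -251. These bounds were set after the values were seen.

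Of these 13 CpGs, 8 were called lower in line 1 (adjusted p from 5.19e-05 to 0.0289), between 56642097 and 56642205, at -399 to -291 from the start. At 56642205, the nearest to the promoter of the 8, 31 of 34 reads were methylated in parental cells, 7 of 25 in line 1 and 23 of 31 in line 2. At 56642196 the reads were 17 of 31, 1 of 28 and 10 of 35. Over these 8 CpGs the means were 71.2%, 25.6% and 53.4%, and over all 13 they were 59.4%, 21.35% and 43.4%. Choosing CpGs called lower favours a wide gap between parental and line 1. It also favours a high level in the parental library, and so a lower line 2. All 8 were lower than parental in line 2 too, but none was called, with adjusted p from 0.362 to 1 and 3 of 8 at an unadjusted p under 0.05. Against line 2, line 1 was called lower at 1 of them. Fragments of 150 to 200 bp span several of these CpGs, so the sites share reads and are not independent.

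**Figure D4:**
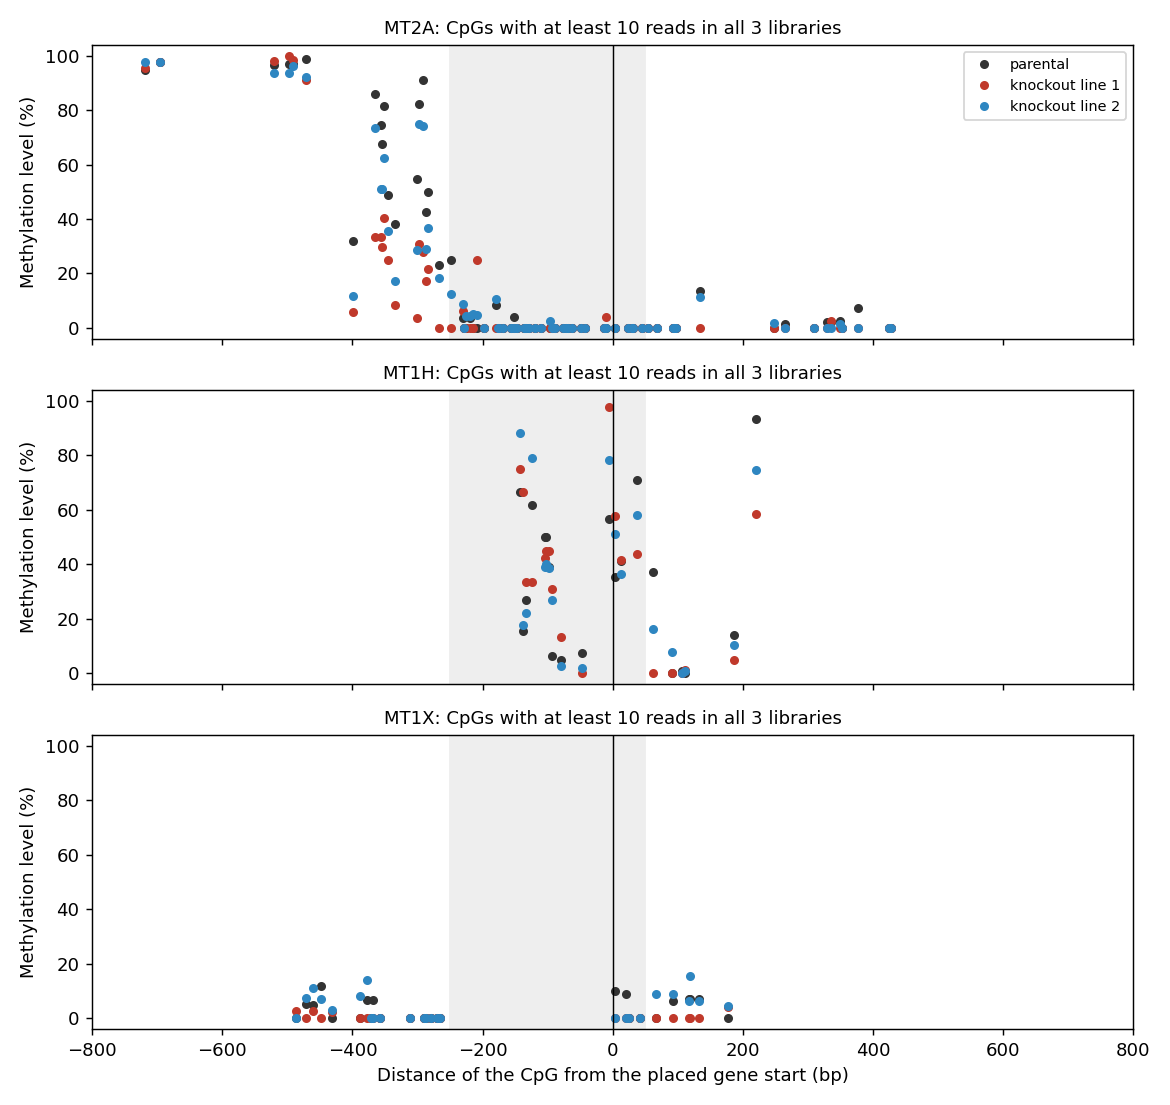
Methylation level (%) of each CpG with at least 10 reads in all libraries, against distance (bp) from the placed starts of MT2A, MT1H and MT1X, with the promoter window shaded. MT2A falls from above 90% upstream to near 0 within its promoter, with line 1 lowest on the slope, MT1H is intermediate with CpGs moving both ways, and MT1X stays under 20% in every library.

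The stretch with the most CpGs, from the MT2A promoter to that of MT1B, holds MT1E, MT1M and MT1A and 375 of the 620 CpGs. Its mean was 33.8% in parental cells, with 26.4% in line 1 and 31.2% in line 2. Line 1 had 29 of these 375 CpGs called lower and 4 higher, beside 4.46% and 0.599% of all CpGs. Line 2 had 1 lower and 2 higher, beside 0.713% and 0.0831% of all CpGs. Its dense windows ran from 11.9% to 77.9% in the parental library and were not assigned to genes, because no annotation of the files' build was used. The window at 56666001 had 68 CpGs at 18.6%, 10.8% and 13.6%, with 4 called lower and 1 higher in line 1. The window at 56677001 was lower still, at 11.9%, 4.09% and 6.67% over 20 CpGs. At 56651001, 26 CpGs averaged 45.0%, 33.7% and 44.8%, with line 2 near the parental mean and line 1 below it.

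The window at 56669001 held 10 of the 29 CpGs called lower in line 1. Its largest single difference was at 56669900, with 21 of 25 methylated reads in parental cells, 0 of 12 in line 1 and 9 of 26 in line 2. The Fisher exact test gave an adjusted p of 6.53e-05 for line 1 and 0.0479 for line 2 against parental, and the 0 of 12 in line 1 allows a level of up to 25% (3 counts of the total). At 56669670 the lines differed from each other, with 3 of 18 reads in line 1 and 28 of 43 in line 2 (exact test, adjusted p = 0.0432), beside 20 of 37 in the parental library.

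The window at 56672001 held CpGs that moved in opposite directions within a few bases. Its mean changed little (23.5%, 19.3% and 25.4% over 53 CpGs). At 56672104 the methylated reads were 41 of 65 in parental cells, 9 of 49 in line 1 and 45 of 78 in line 2, while at 56672108 they were 5 of 60, 23 of 47 and 28 of 77. By the exact test the first was called lower in line 1 and the second higher in both knockout lines (adjusted p = 0.000213 in line 1 and 0.0168 in line 2). At 56672174, the other CpG called higher in both, they were 1 of 52, 17 of 40 and 14 of 49 (exact test, adjusted p = 5.50e-05 and 0.0194). The deepest called CpG of the cluster, 56672722, had 84 of 120 in parental cells, 5 of 77 in line 1 and 77 of 142 in line 2. It was called lower in line 1 against parental (exact test, adjusted p = 3.53e-17) and against line 2 (adjusted p = 6.01e-10), and was not called in line 2 against parental (adjusted p = 0.302). The genes of this family are close copies of each other, and whether reads of one copy were counted at another, or whether the base sequence at these sites differs between the libraries, was not tested.

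The CpGs of the stretch with the largest called rises in line 1 lay elsewhere. At 56659492, in the highly methylated window, 4 of 12 parental reads, 21 of 23 in line 1 and 24 of 29 in line 2 were methylated, called higher in line 1 (exact test, adjusted p = 0.0157). At 56666424, in a low window, the reads were 1 of 21, 7 of 12 and 6 of 23 (exact test, adjusted p = 0.0244 in line 1). Both calls rest on few reads. At 56651447 line 2 was the high library, with 32 of 45 reads beside 8 of 41 in line 1 and 12 of 36 in the parental library (line 1 against line 2, exact test, adjusted p = 0.000493). The single CpG called higher in line 1 than in line 2 was 56659370, with 45 of 46 reads against 28 of 44 and 25 of 30 in the parental library (exact test, adjusted p = 0.00374).

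MT1B has the placed promoter with the least coverage. None of its 7 CpGs reached 10 reads in all libraries, and pooled they gave 0 of 29 methylated reads in parental cells, 1 of 39 in line 1 and 7 of 89 in line 2. If reads at neighbouring CpGs were independent, the parental count of 0 would allow a level of up to 10.3% (3 counts of the total). No difference could be read from these counts.

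MT1F and MT1G, liver-expressed members reported as silenced by methylation in tumours, lie between the MT1B and MT1H promoters. The 81 CpGs there averaged 38.3% in parental cells, 25.6% in line 1 and 33.4% in line 2. Line 1 had 10 of these 81 CpGs called lower and none higher, beside 4.46% and 0.599% of all CpGs. Across the series 0.6% of CpGs were called lower in both lines, and in this stretch 2 of the 10 were. One of these was the extreme case of the cluster: at 56695237 all 23 parental reads were methylated, 0 of 14 in line 1, which allows up to 21.4%, and 13 of 27 in line 2 (Fisher exact test, adjusted p = 3.19e-08 in line 1 and 0.00535 in line 2). The other was 56701972, with 22 of 32, 1 of 26 and 3 of 29 (exact test, adjusted p = 2.54e-05 and 0.0017), where both lines were near 0. Among its 8 windows, 56697001 had means of 65.5%, 51.2% and 59.4% over 18 CpGs and 56691001 had 41.2%, 26.4% and 33.7% over 12. Others were not lower in line 2, such as 56692001 with 58.98%, 58.04% and 62.8% over 5.

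MT1H had the partly methylated promoter among the 3 members placed. In the same window around its start, 14 CpGs averaged 38.1% in parental cells, 44.7% in line 1 and 41.4% in line 2, higher in the knockout lines. With a minimum of 5 reads the order was 46.7%, 44.9% and 49.1%, so that line 1 was below parental. The pooled reads of these CpGs gave 41.3% (exact 95% interval 37.3 to 45.3), 45.1% (40.2 to 50) and 43.8% (39.9 to 47.9), and these intervals overlap. The mean over a wider window of 500 bases to each side was 33.9%, 34.5% and 34.5%. The intervals are of pooled reads in each library. No interval was computed for the mean over CpGs or for a difference, so whether the MT1H mean differed was not decided.

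Around the MT1H start, single CpGs moved in opposite directions. At 56703720, 6 bases before the start and inside the last metal response element core of the printed sequence (TGCGCTC), 47 of 83 reads were methylated in parental cells, 43 of 44 in line 1 and 61 of 78 in line 2. It was called higher in line 1 (Fisher exact test, adjusted p = 2.02e-05) and not in line 2 (adjusted p = 0.179). At 56703730, 5 bases past the start, the levels were 35.3%, 57.7% and 51.2% and no call was made. At the CpGs called further on the parental library was the highest. At 56703764 the reads were 73 of 103, 28 of 64 and 58 of 100 (exact test, adjusted p = 0.0142 in line 1 and 0.706 in line 2). At 56703788, just outside the promoter window, they were 40 of 108, 0 of 73 (up to 4.11%) and 20 of 124 (exact test, adjusted p = 7.47e-09 and 0.034). In line 2 the difference at that CpG was -20.9 points, below the size needed for a call.

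Among CpGs at the read minimum in the 250 upstream bases of MT1H, those inside a core were on average more methylated than the others in every library. The 3 inside averaged 61.7%, 68.7% and 81.8% in the parental library, line 1 and line 2, and the other 8 averaged 25.02%, 34.5% and 23.6%. This is a description of 3 CpGs, with a range of 33.3% to 97.7% among them in line 1. Of the CpGs left out by the minimum, the one at -175, outside a core, had 5 of 5 methylated parental reads. The same split at MT2A gave values near 0 on both sides.

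From the MT1H promoter to that of MT1X, 63 CpGs averaged 26.8%, 23.1% and 24.8%. Of these, 4 were called lower and 1 higher in line 1, beside 4.46% and 0.599% of all CpGs. In line 2, 1 was called lower, beside 0.713% of all CpGs. The CpG called lower in both lines was 56707261, with 28 of 34, 9 of 38 and 23 of 54 methylated reads (exact test, adjusted p = 4.17e-05 in line 1 and 0.0346 in line 2). The window at 56709001 had the largest difference of any window between line 1 and parental, 21.7% against 38.3% over 7 CpGs, with line 2 at 28.3%, and none of its CpGs was called.

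MT1X, a broadly expressed member, had an unmethylated promoter in the reads that covered it. Over 22 of its 26 CpGs, 2 of 97 reads were methylated in parental cells, 0 of 203 in line 1 and 0 of 194 in line 2. If reads at neighbouring CpGs were independent, the zero counts would allow up to 1.48% in line 1 and 1.55% in line 2 (3 counts of the total). On that basis the parental interval ran from 0.251% to 7.25%. From -214 to -130 every CpG seen had 2, 8 and 4 reads in the parental library, line 1 and line 2. A few fragments may thus account for many of these counts, and the limits are then too narrow. Only 4 of the CpGs, all after the start, reached 10 reads in every library. No difference was detectable at this depth. From the MT1X promoter onward 15 CpGs were tested, with means of 22.4%, 8.37% and 12.7%. The 1 CpG called there was 56719810, where 15 of 15 parental reads were methylated, 5 of 27 in line 1 and 11 of 30 in line 2 (exact test, adjusted p = 1.34e-05 and 0.00552). It was thus called lower in both lines, as 0.6% of all CpGs were.

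Other genes of metal and redox handling were taken from a list of 19, and 14 of them had a placed promoter with CpGs at the read minimum, 285 in all. Their median promoter level was 0.129% in parental cells, 0.128% in line 1 and 0.457% in line 2. Where a gene has several promoters, the one with the most CpGs seen stands for it in these counts. The zinc exporter SLC30A1 (0.174%, 0% and 0.396%) and the importer SLC39A10 (0.0844%, 0.0498% and 0.0318%) were near 0, as MT2A was. The importer SLC39A1 had one promoter at 0.308%, 0% and 0.297% and another at 72.04%, 70.9% and 70.2%. KEAP1, the adaptor that targets NRF2 for degradation, had one promoter at 31.0%, 7.47% and 17.8% over 20 CpGs and another at 0%, 0.195% and 0.188%. Line 1 had 4 of the 285 CpGs of the list called lower and none higher, beside 4.46% and 0.599% of all CpGs. Line 2 had 1 called lower, beside 0.713% of all CpGs. These calls were all at KEAP1. MTF1 itself was not placed. Of 6 genes beside the cluster, 5 were placed with 62 CpGs and no call in either knockout line, SLC12A3 at 84.1%, 81.7% and 80.04% and the others at or below 1.45% in every library.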

How the data were processed

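Methyl Capture EPIC bisulfite sequencing was measured in 1 parental and 2 SOX4 knockout Hep3B libraries, from 500 ng of DNA sheared to 150 to 200 bp. For each cytosine the authors deposited counts of methylated and of CpG-context reads, with no normalization, and a methylation level as a fraction, which was not used here. The submitters' processing notes name GRCh37 (hg19). The aligner, the caller, the filters and the removal of duplicates were not given in the sources used here.

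Reads of the opposite strands were summed and each CpG was named by its C. A minimum of 10 reads in every library applied. Pairs of libraries were compared by a 2-sided Fisher exact test (Benjamini-Hochberg over 2238764 CpGs; calls at an adjusted p under 0.05 and 25 percentage points). Windows of 1000 bp with at least 5 such CpGs were called at 25 points with no p. Levels are means over CpGs unless pooled reads are named. Intervals are exact Clopper-Pearson 95% intervals, and limits for a count of 0 use 3 counts. Both cover counting error only, since PCR reads are not independent molecules. In pooled counts a read is counted at each CpG that it covers, so intervals and limits of pooled reads are too narrow.

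Promoters from the RefSeq table (250 bases before to 50 after the start) were set on the files' positions where at least 7 CpGs matched, no covered CpG lay outside the sequence's CpGs, and the match was at least 2 times the next best on the chromosome. This rule was chosen after the data were seen, and coordinates of the RefSeq build were not used. The members, lists and tests were chosen with earlier results of these data known. The text names the 10 members, the 3 windows with the highest and the 3 with the lowest parental level, and the CpGs with the largest called differences in each pair. Other windows and CpGs were named after their values were seen. In simulated libraries with 200 of 2238764 CpGs lowered by 45 points in line 1, 29% of them were called in line 1 against parental, with 0 false calls. In the data 99849 CpGs were called lower in line 1, so the adjustment was stricter in the simulation and 29% is not the power here. Simulated reads were independent draws from a level common to the libraries, so the 0 false calls do not cover shared or copied reads. Alternatives were the read minimum, the size of the difference, the adjusted p, thinning to equal depth, 1 strand alone, read-weighted means, other windows, wider promoters and each knockout line left out. Versions were Python 3.11.15, matplotlib 3.10.9, numba 0.67.0, scipy 1.17.1, pandas 2.3.3 and numpy 2.4.6.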

Additional observations from a re-analysis of the deposited data

How the results depend on the processing

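No paired analysis was possible because only 1 parental library was analysed. Of 208 values recomputed for 32 results, 130 stayed within 1.5 times a count or within 1 SD, and 78 moved. The parental library is single and has no SD, so its values were judged by the interval of its pooled reads. The label reversed was given to 0 values, but it left out changes of order between parental and a single line. Such changes did occur, for example at MT1H with 5 reads and in the cluster mean on the forward strand. Line 1 kept more falls than rises against parental in all 9 settings of the call. Leaving out line 2 makes the count of CpGs called in both lines the count of line 1 alone, 6 higher and 54 lower. Counts follow in the order line 1 against parental, line 2 against parental, line 1 against line 2, both lines.

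With 5 reads, 1 window was lower in line 1 and 1 in line 2, the parental mean was 38.2%, MT1H was 46.7%, 44.9% and 49.1% in the parental library, line 1 and line 2, with line 1 turned below parental, and the knockout mean minus parental was 0.329 points at MT1H and -2.39 at MT1X. With 20 reads, 3 CpGs were higher in line 1, 2 lower in line 2 and 2 lower in both; MT2A was 2.50% and 0.40% (parental, line 1; difference -1.68) and MT1H 41.6% and 37.0% in lines 1 and 2. At 10 points, 8, 1 and 3 windows were lower. At 50 points, higher counts were 3, 0, 0 and 0 and lower counts 19, 3, 1 and 3. At an adjusted p under 0.01, higher counts were 3 and 0, with 0 in both, and lower counts 32, 3, 3 and 3. After thinning, higher counts were 0 in line 2, 0 between lines and 0 in both, and lower counts 1, 4 and 1. The forward strand alone, which covered few CpGs, gave 1, 0, 0 and 0 higher and 2, 0, 1 and 0 lower, with means of 23.7%, 17.7% and 23.9%, so that line 2 was not below parental. Weighted by reads, the parental mean was 35.2%, MT2A was 1.01% and MT1H 43.8% in line 2, and MT1X differed by -4.26 points. Windows of at least 3 CpGs gave 3, 1 and 2 lower, and windows shifted by 500 bp gave 1 lower in line 1.

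Within 500 bases of the start, MT2A was 16.5%, 8.76% and 13.2% (difference -5.49), MT1H 33.9%, 34.5% and 34.5% (0.577), and MT1X 0.455% and 3.90% in lines 1 and 2 (-0.990). Against chromosome 16, read dosage was 1.03 and 1.01. An alternative chosen after seeing the data, pooling all CpGs with a read in each library, gave 1.01% at MT2A in line 2, 42.7% and 45.4% at MT1H (parental, line 2; difference 2.55), and -2.06 points at MT1X. The MT2A value depends on how far the window reaches into the methylated flank. For the other values the cause was not tested.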

Other observations

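Of the windows of the cluster with 3 or 4 CpGs, too few for the main analysis, 4 differed by at least 25 points in some pair. The window at 56719001, beyond the MT1X start, held 4 CpGs at 71.0% in parental cells, 29.3% in line 1 and 35.0% in line 2. At 56695001, between the MT1B and MT1H promoters, 4 CpGs averaged 53.3%, 5.88% and 35.1%, and at 56598001, ahead of MT2A, 3 CpGs averaged 43.9%, 15.2% and 21.0%. At 56665001 the knockout lines parted to either side of the parental value, with 27.4%, 13.3% and 40.2% over 4 CpGs. The 273 CpGs of the cluster under the read minimum had pooled levels of 42.5%, 34.4% and 41.9% in the same order, from 1885, 2173 and 2721 reads.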
